A study of Mus musculus with 24 samples.

Results

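The 8 genes described here, Slc2a2, Gckr, Khk, Pfkl, Pfkfb1, Pfkfb3, Eno1 and Pklr, take part in sugar uptake and glycolysis in the liver. They were chosen by name, with earlier results of these data known, among 21495 genes tested. Every probe outside the controls that the array files assign to one of these symbols was taken, which gave 15 of 56605 probes. Each gene was then read from its probe with the highest mean signal over all 24 arrays. These 8 chosen probes were well above the local background on all 24 arrays.

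The arrays measured liver RNA of 24 male mice aged 12 weeks, in 4 groups of 6. The p110aLKO mice (LKO below) carried floxed alleles of Pik3ca, which encodes p110α, the catalytic subunit of a PI 3-kinase that relays the insulin signal, and an albumin-Cre transgene that deletes them in hepatocytes. Their p110aLWT littermates (LWT below) carried the same floxed alleles without Cre. In each genotype, one group ate freely and the other was deprived of food for 24 h, and all mice were killed at ZT16, that is 16 h after the lights came on. The deletion is directed to cells that express albumin, so other liver cells of LKO mice should keep p110α, which was not tested here. In whole liver, fewer cells of a type and less RNA per cell cannot be told apart. Values below are log2 signals of 1 probe after quantile normalisation. They rank groups for that probe and do not compare genes with each other.

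Hepatocytes take up glucose through GLUT2, the carrier encoded by Slc2a2, which lets glucose pass in either direction. Phosphorylation traps the sugar, and the protein encoded by Gckr restrains this step when glucose is scarce. Fructose enters through ketohexokinase, encoded by Khk. The committed step of glycolysis is set by phosphofructokinase, whose liver subunit is Pfkl, and by fructose 2,6-bisphosphate, which bifunctional enzymes such as Pfkfb1 and Pfkfb3 make and remove. Eno1 encodes an enolase, and Pklr encodes the pyruvate kinase of liver and red cells, the enzyme of the last step. Feeding and insulin are known to raise transcription of several of these genes in liver, in part through SREBP-1c and the glucose-responsive factor ChREBP.

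Some facts of the whole series bear on these genes. Between 54.7% and 63.0% of spots per array were well above background, and no spot was saturated. Hepatocyte markers were high throughout, with the mean log2 signal of 6 such genes between 17.5 and 17.9 in all 24 arrays. The arrays of LWT_Fed replicate 3, LKO_Fasted replicate 4 and LWT_Fasted replicate 2 stood apart and received the lowest weights in the fit, 0.31, 0.35 and 0.43, against 0.73 or more for the others. The probe of the targeted gene, Pik3ca, lies at chr3:32364747-32364806 (mm9). It read from 11.71 to 12.25 in LWT_Fed and from 12.30 to 13.02 in LKO_Fed, 1.49-fold higher in LKO (adjusted p = 0.000534), and it was at 98.5% of the LWT level after fasting (adjusted p = 0.919). Whether this probe lies in the deleted exons was not determined here, so it gives no check of the genotype.

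Most of the 8 genes were lower after fasting in both genotypes, and Khk and Pklr were lower in LKO than in LWT in both nutritional states. Here a gene passed the test if limma gave it an adjusted p no higher than 0.05, with the adjustment made over every probe, and it was called when its fold change also exceeded 1.5. In LWT, fasting lowered 5 of 8 genes by this rule (Slc2a2, Gckr, Khk, Pfkfb3 and Pklr), where 10.1% of all genes were called and 5.25% were called lower. In LKO, the 5 genes called were again Slc2a2, Gckr, Khk, Pfkfb3 and Pklr, all lower, against 12.8% of all genes called and 6.90% called lower. By adjusted p alone, 6 of 8 passed in LWT and 6 of 8 in LKO, all lower, beside 45.3% and 43.3% of all genes. The arrays of the fed and fasted groups did not overlap for 6 of 8 genes in each genotype, beside 21.6% of all genes in LWT and 22.1% in LKO. The median log2 change of the 8 genes was -0.77 in LWT and -1.11 in LKO, and that of all genes was -0.01 and -0.02.

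Between genotypes, 2 of 8 genes were called in fed mice (Khk and Pklr, lower in LKO) and 2 of 8 in fasted mice (the same pair, lower again). Of all genes, 3.96% were called in fed mice and 4.11% in fasted mice. By adjusted p alone, 4 of 8 passed in fed mice, 3 of them lower in LKO and Pfkfb3 higher, where 20.7% of all genes passed. In fasted mice 6 of 8 passed, all lower in LKO, where 22.6% of all genes passed. Arrays of LWT and LKO did not overlap for 3 genes in fed mice (Khk, Eno1 and Pklr) and for 1 gene in fasted mice (Khk), beside 8.63% and 8.67% of all genes. The fasting change differed between genotypes for 4 of 8 genes by the interaction test, where 10.3% of all genes passed. Only Pfkfb3 was also called in that test, beside 3.54% of all genes.

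**Figure D1:**
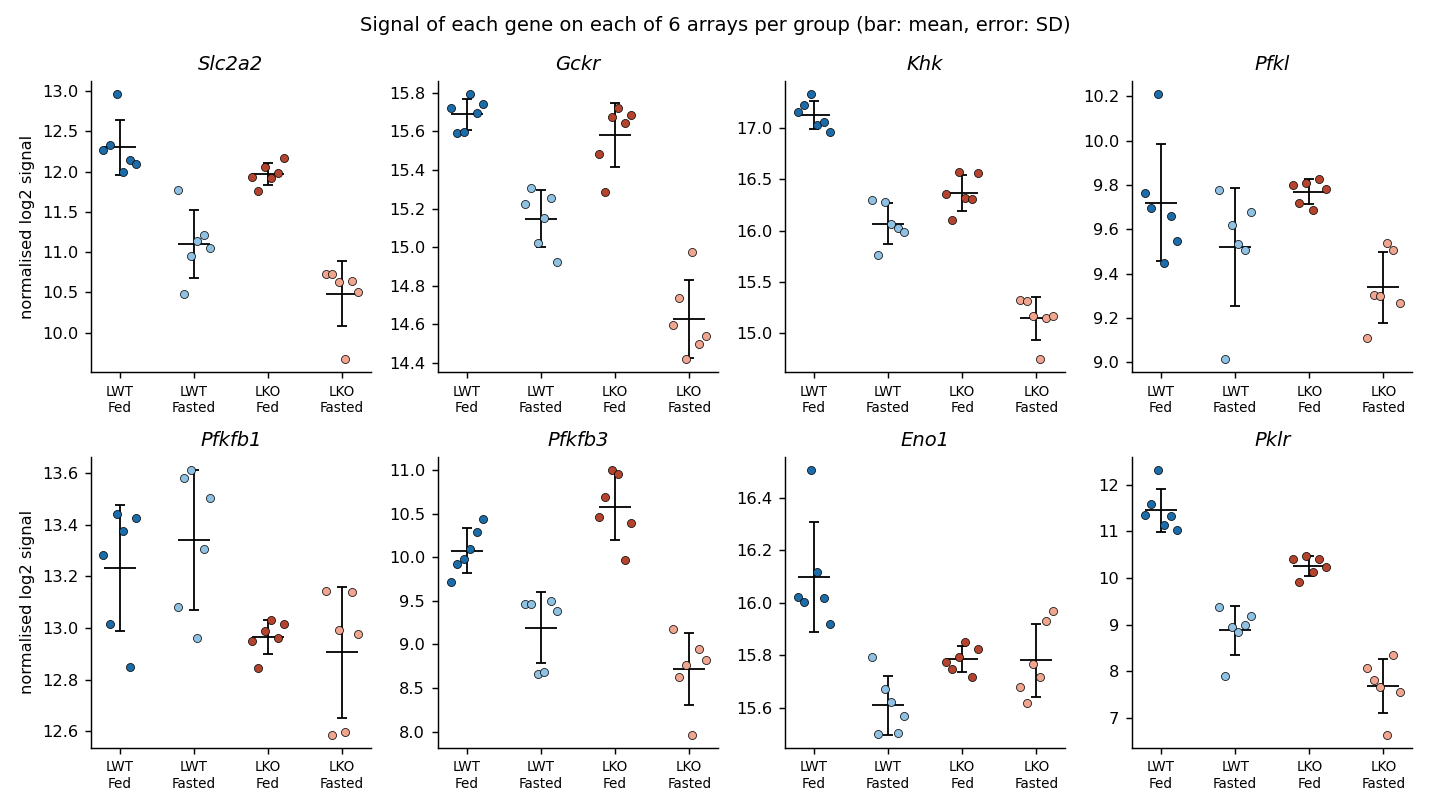
Normalised log2 signal (vertical axes, a separate scale for each gene) of the 8 genes in the 4 groups (horizontal axes); each point is 1 array, the bar is the group mean and the error bar its SD (n = 6). Fed and fasted points separate in both genotypes for Slc2a2, Gckr, Khk, Pfkfb3 and Pklr, and they mix for Pfkfb1.

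Slc2a2, the glucose carrier, was read by a single probe whose annotated span is chr3:28625253-28625961 (mm9, NM_031197). Its log2 signal had a lowest value of 12.00, a median of 12.21 and a highest of 12.96 in LWT_Fed. In LWT_Fasted the corresponding values were 10.48, 11.09 and 11.78. They were 11.76, 11.96 and 12.16 in LKO_Fed, and 9.68, 10.64 and 10.73 in LKO_Fasted. No fasted array reached the fed arrays of its own genotype, whereas LKO_Fasted arrays overlapped those of LWT_Fasted. Fasting lowered Slc2a2 2.06-fold in LWT (log2 change -1.05, SE 0.13, adjusted p = 6.95e-07) and 2.67-fold in LKO (log2 change -1.41, SE 0.15, adjusted p = 6.44e-08). In fasted mice the LKO level was 66.7% of the LWT level (adjusted p = 0.00517), a fold that lies just under the minimum, so that the gene passed but was not called. In fed mice the LKO level was 86.1% of the LWT level (adjusted p = 0.261), with a 95% interval of the log2 difference from -0.48 to 0.05. The fasting change was not shown to differ between genotypes (log2 difference -0.37, adjusted p = 0.242).

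Gckr, the inhibitory protein of glucose phosphorylation, was also read by a single probe (NM_144909, chr5:31629583-31629642, mm9). Its log2 signal had a lowest value of 15.59, a median of 15.71 and a highest of 15.79 in LWT_Fed, and values of 14.92, 15.19 and 15.31 in LWT_Fasted. In LKO_Fed the lowest was 15.29, the median 15.66 and the highest 15.72, and in LKO_Fasted they were 14.42, 14.57 and 14.98. Fed and fasted arrays did not overlap, and 5 of 6 LKO_Fasted arrays lay below every LWT_Fasted array. Fasting lowered Gckr 1.52-fold in LWT (log2 change -0.60, SE 0.07, adjusted p = 4.57e-07), close to the fold minimum, and 2.01-fold in LKO (log2 change -1.01, SE 0.08, adjusted p = 1.55e-09). The decrease was larger in LKO, by -0.41 on the log2 scale (SE 0.11, adjusted p = 0.0195). This difference did not pass without LKO_Fasted replicate 6 (-0.37, adjusted p = 0.0515), without array weights (-0.41, adjusted p = 0.0555) or with no filter on dim probes (-0.41, adjusted p = 0.0534). The genotypes were not shown to differ in fed mice (log2 difference -0.12, 95% interval -0.27 to 0.03, adjusted p = 0.241), and after fasting LKO was 1.45-fold lower (adjusted p = 6.42e-05).

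Khk, which phosphorylates fructose (NM_008439, chr5:31233555-31233614, mm9), was the only one of the 8 genes whose arrays did not overlap in any of the 4 pairwise comparisons. From high to low, its groups came in the order LWT_Fed, LKO_Fed, LWT_Fasted and LKO_Fasted. The lowest, median and highest log2 signals were 16.96, 17.11 and 17.33 in LWT_Fed. They were 16.10, 16.34 and 16.57 in LKO_Fed. In LWT_Fasted they were 15.76, 16.04 and 16.29, and in LKO_Fasted 14.75, 15.17 and 15.32. The arrays of LKO_Fed and LWT_Fasted overlapped, and no other neighbours in this order did. Fasting lowered Khk 2.00-fold in LWT (SE 0.08 on the log2 scale, adjusted p = 1.07e-09) and 2.32-fold in LKO (log2 change -1.22, SE 0.09, adjusted p = 4.14e-10). LKO was 1.63-fold lower than LWT in fed mice (adjusted p = 6.71e-06) and 1.89-fold lower in fasted mice (adjusted p = 3.47e-07). The interaction test did not pass (log2 difference -0.21, 95% interval -0.46 to 0.03, adjusted p = 0.272). Another Khk probe, designed on XM_006503749, gave the same calls in the 4 pairwise comparisons, with fasting changes of -1.04 in LWT and -1.20 in LKO on the log2 scale.

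The phosphofructokinase step was represented by Pfkl and by the bifunctional enzymes Pfkfb1 and Pfkfb3, and these 3 genes differed from each other. The Pfkl probe (NM_008826) lies at chr10:77450926-77450985 (mm9). Its signals ran from 9.45 to 10.21 in LWT_Fed (median 9.68) and from 9.02 to 9.78 in LWT_Fasted (median 9.58), so that the groups overlapped. They ran from 9.69 to 9.83 in LKO_Fed (median 9.79) and from 9.11 to 9.54 in LKO_Fasted (median 9.30), with no overlap. The LWT change with fasting was -0.06 on the log2 scale (adjusted p = 0.515), whereas Pfkl fell 1.38-fold in LKO (log2 change -0.46, adjusted p = 0.000148). The difference between these changes was -0.40 (SE 0.11, adjusted p = 0.0308), and it took opposite signs among the 3 slides, between -0.58 and 0.26. It did not pass without array weights (-0.23, adjusted p = 0.426), or without any one of LWT_Fed replicates 4 and 5, LWT_Fasted replicate 6, LKO_Fed replicate 3 and LKO_Fasted replicates 1 and 3 (adjusted p from 0.0503 to 0.0602). It did not pass with slide as a random block either (-0.36, adjusted p = 0.0736), or with no slide term (-0.36, adjusted p = 0.0739). In fasted mice the LKO level of Pfkl was 83.1% of the LWT level (adjusted p = 0.0262), which did not pass without any one of LWT_Fasted replicates 1, 4, 5 and 6 and LKO_Fasted replicates 1, 2 and 3 (adjusted p from 0.0511 to 0.0728), nor without array weights (-0.18, adjusted p = 0.273), with no filter on dim probes (adjusted p = 0.0988), with only the groups compared (adjusted p = 0.0818), with no slide term (adjusted p = 0.0513) or with slide as a random block (adjusted p = 0.0511).

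Pfkfb1, the bifunctional enzyme typical of liver (NM_008824, chrX:147078320-147078379, mm9), did not pass the test with fasting in either genotype. Its lowest, median and highest log2 signals were 12.85, 13.33 and 13.44 in LWT_Fed, and 12.96, 13.40 and 13.61 in LWT_Fasted. They were 12.85, 12.98 and 13.03 in LKO_Fed, and 12.59, 12.99 and 13.14 in LKO_Fasted. The 4 groups overlapped. The fasting change was 0.14 in LWT (95% interval -0.10 to 0.38, adjusted p = 0.341) and -0.02 in LKO (95% interval -0.29 to 0.26, adjusted p = 0.930). In fed mice the LKO minus LWT difference was -0.22 on the log2 scale (95% interval -0.46 to 0.02, adjusted p = 0.199) and did not pass. After fasting, Pfkfb1 was 1.30-fold lower in LKO than in LWT (adjusted p = 0.0401). That difference did not pass without any one of LWT_Fed replicate 1, LWT_Fasted replicates 2, 3 and 6, LKO_Fed replicate 2 and LKO_Fasted replicates 2, 3, 4 and 6, with adjusted p from 0.0508 to 0.192 and log2 differences from -0.39 to -0.24. It did not pass with no filter on dim probes (adjusted p = 0.0554) or with only the groups compared (adjusted p = 0.0956) either. Without LWT_Fasted replicate 4, the fasting change in LWT passed (0.29, adjusted p = 0.0294).

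Pfkfb3, the form with strong kinase activity that is found in many tissues (NM_133232, chr2:11393579-11393638, mm9), fell with fasting in both genotypes and was the only gene of the 8 that passed with a higher level in fed LKO mice. In LWT its log2 signals ran from 9.72 to 10.44 when fed (median 10.04) and from 8.66 to 9.50 when fasted (median 9.42). In LKO the lowest was 9.98 and the mean 10.58 ± 0.39 (SD, n = 6) when fed, and they ran from 7.97 to 9.18 when fasted (median 8.79). Fed and fasted arrays did not overlap in either genotype, and 4 of 6 LKO_Fed arrays lay above every LWT_Fed array. The decrease was 1.92-fold in LWT (log2 change -0.94, SE 0.16, adjusted p = 5.40e-05) and 3.47-fold in LKO (log2 change -1.80, SE 0.19, adjusted p = 6.86e-08). The decreases differed by -0.85 on the log2 scale (SE 0.25, adjusted p = 0.0317), and this difference was negative within each of the 3 slides, from -1.54 to -0.60. It did not pass without any one of LWT_Fed replicates 1 and 4, LWT_Fasted replicate 6, LKO_Fed replicates 1 and 3 and LKO_Fasted replicate 6, with adjusted p from 0.0564 to 0.0616 and differences from -0.83 to -0.78. It did not pass with no filter on dim probes either (-0.88, adjusted p = 0.0593). In fed mice LKO was 1.45-fold higher (adjusted p = 0.0245), which did not pass without any one of LWT_Fed replicates 1 and 4 and LKO_Fed replicates 1, 3 and 4 (adjusted p from 0.0574 to 0.0777), without array weights (adjusted p = 0.0789) or with no filter on dim probes (adjusted p = 0.0641). After fasting the log2 difference was -0.31 (95% interval -0.69 to 0.07, adjusted p = 0.241).

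Eno1 (NM_023119, chr4:149622928-149622987, mm9) moved least among the genes that passed with fasting in LWT. The lowest, median and highest log2 signals were 15.92, 16.02 and 16.51 in LWT_Fed, and 15.50, 15.60 and 15.79 in LWT_Fasted. In LKO_Fed they were 15.72, 15.78 and 15.85, and in LKO_Fasted 15.62, 15.74 and 15.97. The LWT_Fed arrays lay above every array of LWT_Fasted and of LKO_Fed, while the LKO groups overlapped. Fasting lowered Eno1 1.34-fold in LWT (log2 change -0.43, SE 0.06, adjusted p = 8.70e-06). In LKO the log2 change was 0.01 (95% interval -0.14 to 0.15, adjusted p = 0.961). The changes differed by 0.43 (SE 0.10, adjusted p = 0.00667), and the difference was positive within each slide, from 0.38 to 0.61. In fed mice LKO was 1.19-fold lower (adjusted p = 0.00884). In fasted mice the log2 difference of 0.18 did not pass (adjusted p = 0.0677), and it passed without any one of LWT_Fed replicate 3, LWT_Fasted replicate 1 and LKO_Fasted replicates 1 and 2. The interaction did not pass for the other Eno1 probes, which are described further on.

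Pklr, the pyruvate kinase of liver (NM_013631, annotated span chr3:88948907-88949425, mm9), showed the largest changes of the 8 genes in the 4 pairwise comparisons. Its lowest, median and highest log2 signals were 11.03, 11.33 and 12.32 in LWT_Fed, and 9.92, 10.32 and 10.47 in LKO_Fed. They were 7.89, 8.97 and 9.38 in LWT_Fasted, and 6.64, 7.74 and 8.36 in LKO_Fasted. Both fasted groups lay wholly below both fed groups, and 4 of 6 LKO_Fasted arrays lay below every LWT_Fasted array. Fasting lowered Pklr 5.01-fold in LWT (log2 change -2.33, SE 0.17, adjusted p = 3.44e-10) and 5.68-fold in LKO (log2 change -2.51, SE 0.19, adjusted p = 7.68e-10). LKO was 2.04-fold lower than LWT in fed mice (adjusted p = 0.000253) and 2.31-fold lower in fasted mice (adjusted p = 9.98e-05). The fasting change was not shown to differ between genotypes (log2 difference -0.18, 95% interval -0.71 to 0.35, adjusted p = 0.707). Within the 3 slides, each of 2 arrays a group, the LWT change ran from -3.29 to -2.17 and the LKO change from -2.85 to -2.40.

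**Figure D2:**
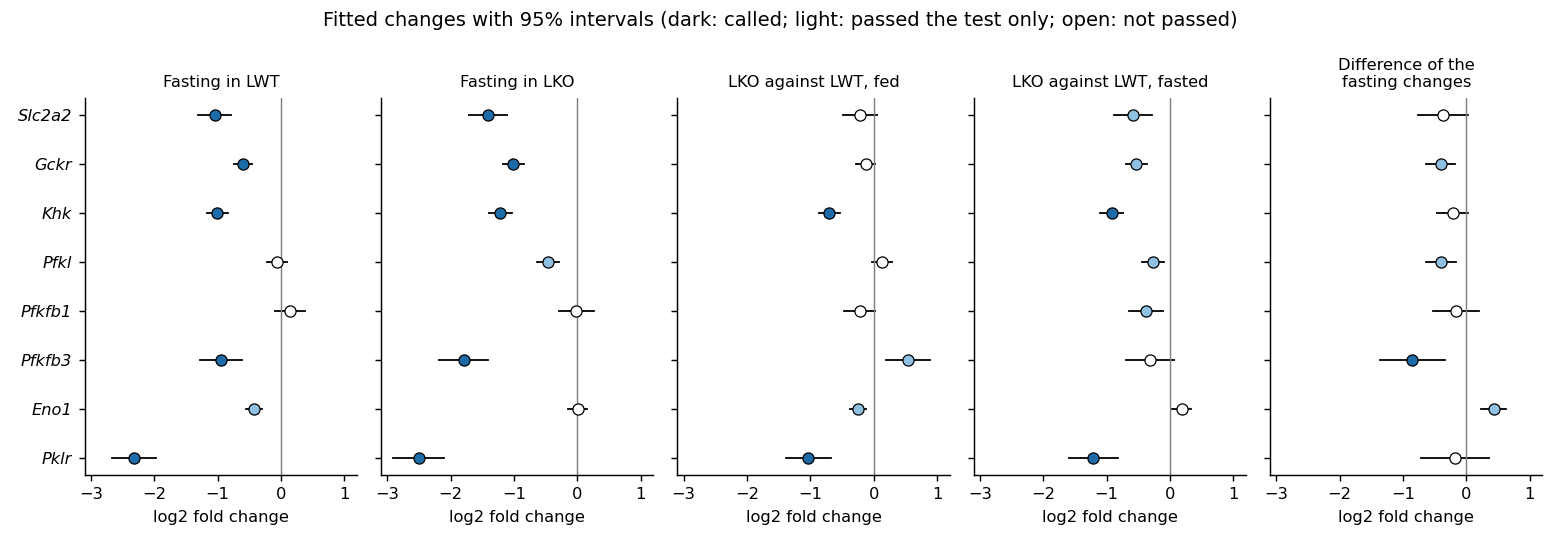
Fitted log2 fold changes (horizontal axes) of the 8 genes (vertical axis) in the 4 pairwise comparisons and, at the right, the LKO minus LWT difference of the fasting changes; lines are 95% intervals, dark points were called, light points passed the test with a fold of at most 1.5 and open points did not pass. Pklr lies farthest to the left in each pairwise comparison, at -2.33 and -2.51 with fasting, and Pfkfb3 is at -0.85 in the panel of differences.

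The promoters are shown for the genes that fell with fasting and hold a paired E-box, the kind of site known for ChREBP, or a single E-box. RefSeq windows of 300 bases (250 before and 50 after an annotated start, GRCm38.p6) were found for all 8 genes, 15 windows in all. The paired E-box of the carbohydrate response element was searched as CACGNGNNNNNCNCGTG, which reads the same on both strands. It was found in 15 of 32851 windows of all genes (0.0457%), and among the 8 genes in Pklr only. That match lies 170 bases upstream of the downstream one of the annotated Pklr starts, which gives the liver form. The single E-box CACGTG was found in 7.15% of all windows, and in Khk and the downstream start of Pfkfb3. The 6-base core GTTAAT of HNF1 sites was found in 7.10% of all windows, and in Khk, Gckr and Pfkfb1 (1 of its 4 starts). The windows follow, 5′ to 3′ on the strand of the gene, with the matches in capitals.
Pklr, chr3:89136373-89136672, plus strand: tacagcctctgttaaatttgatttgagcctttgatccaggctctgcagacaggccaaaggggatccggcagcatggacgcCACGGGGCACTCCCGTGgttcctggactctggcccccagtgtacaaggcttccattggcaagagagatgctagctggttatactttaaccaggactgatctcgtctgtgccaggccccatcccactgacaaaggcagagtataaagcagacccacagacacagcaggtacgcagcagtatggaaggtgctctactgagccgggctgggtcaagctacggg
Khk, chr5:30921309-30921608, plus strand: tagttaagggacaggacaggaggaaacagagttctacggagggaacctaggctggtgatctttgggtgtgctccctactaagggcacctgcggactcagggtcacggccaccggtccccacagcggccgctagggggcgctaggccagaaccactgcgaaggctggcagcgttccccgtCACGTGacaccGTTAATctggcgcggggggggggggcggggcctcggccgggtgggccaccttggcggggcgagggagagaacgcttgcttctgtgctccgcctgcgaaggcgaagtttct
Pfkfb3, chr2:11502041-11502340, minus strand: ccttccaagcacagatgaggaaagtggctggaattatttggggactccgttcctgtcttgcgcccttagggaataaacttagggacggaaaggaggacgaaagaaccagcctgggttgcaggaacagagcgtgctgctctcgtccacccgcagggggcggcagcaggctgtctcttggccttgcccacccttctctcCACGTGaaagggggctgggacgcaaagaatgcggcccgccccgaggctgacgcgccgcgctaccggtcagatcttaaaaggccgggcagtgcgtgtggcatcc
In Khk the E-box begins 71 bases and the GTTAAT core 60 bases upstream of the start. In Pfkfb3 the E-box begins 53 bases upstream. The windows of Slc2a2, Pfkl and Eno1 hold none of these letters, which says nothing of sites elsewhere. The files give no binding data, so that a match is a description of the sequence.

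The other probes of the same genes gave the same direction for Khk but not for all genes. Of the 15 probes, 13 passed the filter on dim signals, and 5 of the 8 genes had several probes. The remaining pair, one for Pfkl and one for Pfkfb3, was too dim to test. For Eno1, a probe on the same RefSeq transcript (NM_023119) fell with fasting, by 0.48 on the log2 scale for LWT (adjusted p = 3.43e-05) and by 0.25 for LKO (adjusted p = 0.0267). The Eno1 probe A_65_P08464, designed on the transcript ENSMUST00000130632, rose 1.67-fold with fasting in LWT mice (adjusted p = 0.000377), and 2.63-fold in the LKO mice (adjusted p = 9.59e-07). It did not pass the interaction test (0.66, adjusted p = 0.0731), nor did the other probe on NM_023119 (0.22, adjusted p = 0.254), and neither passed between genotypes in fed mice (adjusted p = 0.360 and 0.158). The log2 signals of A_65_P08464 ran from 8.87 to 9.22 in LWT_Fed, 9.17 to 10.23 in LWT_Fasted, 8.24 to 9.13 in LKO_Fed and 9.80 to 10.54 in LKO_Fasted. For Pfkl, the probe A_55_P2934717 (AK008812) rose 1.28-fold with fasting in LWT (adjusted p = 0.000239), and its log2 change in LKO was 0.12 (adjusted p = 0.253). Its interaction was -0.24 (adjusted p = 0.163), and its difference between genotypes in fasted mice was -0.07 (adjusted p = 0.599). The other Pfkfb1 probe did not pass with fasting in LWT (-0.19, adjusted p = 0.0961) or in LKO (-0.26, adjusted p = 0.0541). It was 1.26-fold lower in LKO than in LWT in fed mice (adjusted p = 0.0186) and 1.32-fold lower in fasted mice (adjusted p = 0.00942). Statements on Eno1, Pfkl and Pfkfb1 thus hold for the probe named and not for every transcript of the gene.

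**Figure D3:**
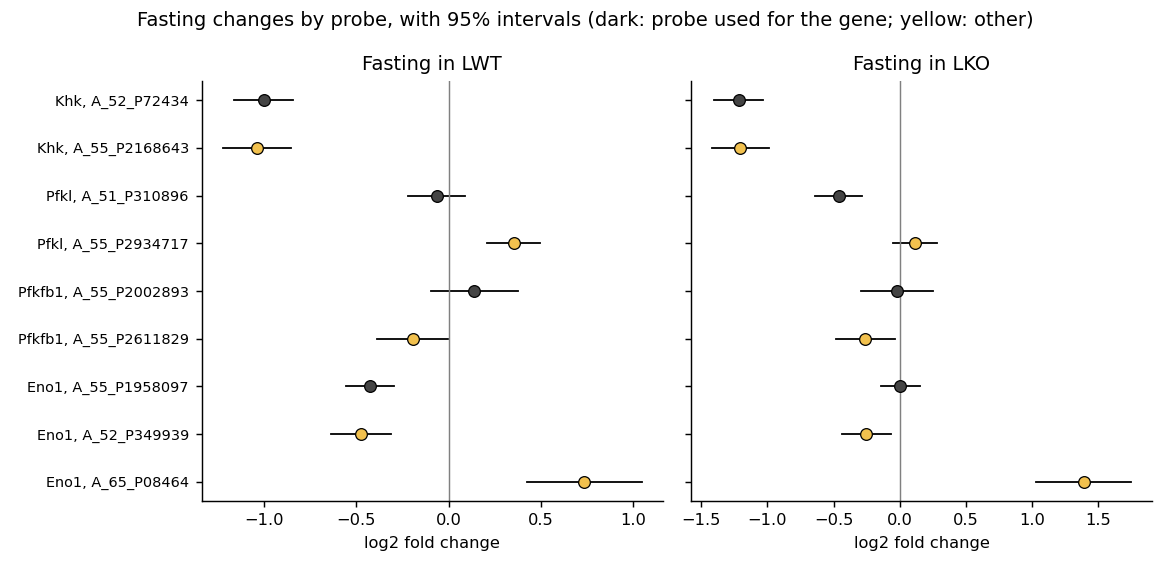
Log2 fold change with fasting (horizontal axes, LWT on the left and LKO on the right) for each probe that passed the filter, of the 4 genes with several such probes; lines are 95% intervals, dark points are the probes used for the genes and yellow points the others. The Khk probes coincide near -1, while the Eno1 probe A_65_P08464 lies at 0.74 in LWT and 1.39 in LKO.

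Other genes of the same route changed in both directions with fasting. A list of 38 carriers, glycolytic enzymes and lactate genes had 35 genes that could be tested. With fasting in LWT, 9 of the 35 passed higher and 15 lower (median -0.11), and in LKO 8 passed higher and 12 lower (median -0.01), where 45.3% and 43.3% of all genes passed in either direction. The most decreased was Slc2a4, the insulin-responsive glucose carrier GLUT4, whose log2 change was -3.30 with adjusted p = 1.03e-11 in LWT, and -1.95 with adjusted p = 1.69e-07 in LKO. In fed mice the LKO minus LWT difference was -1.44 (adjusted p = 3.35e-05). Its fasted signals were alike, from 5.64 to 6.01 in LWT and from 5.61 to 5.91 in LKO, and only 3 of 6 LWT_Fasted and 4 of 6 LKO_Fasted arrays measured it well above background. Its decreases are therefore limited by the background and are not compared between genotypes. Tkfc, which phosphorylates the glyceraldehyde made from fructose, fell by 1.42 on the log2 scale in LWT mice (adjusted p = 2.51e-09) and by 1.22 in LKO mice (adjusted p = 1.64e-07). Further genes called lower with fasting in LWT were Hk3, a hexokinase (-1.02), Gpi1, the glucose phosphate isomerase (-0.66), and Pfkfb4 (-0.60). In LKO the aldolase gene Aldoc was called lower (-0.63).

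Other genes of the list were called higher with fasting. In LWT these were Pfkfb2, a further bifunctional enzyme (0.95, adjusted p = 5.91e-08), the lactate and pyruvate carrier Slc16a1 (0.70, adjusted p = 4.48e-07) and the related carrier Slc16a7 (0.60). In LKO they were Slc16a1 (1.56, adjusted p = 2.59e-11), Aldoa (1.01, adjusted p = 8.46e-10), Ldha, a lactate dehydrogenase subunit (0.89, adjusted p = 2.10e-10), and Glyctk, glycerate kinase (0.74, adjusted p = 1.11e-08). In the interaction test 11 of 35 passed with a higher fasting change in LKO and 2 with a lower one, where 10.3% of all genes passed. Of these 4 were called, namely Slc2a4, which is not read further because its fasted signals lie close to background, Slc16a1 (0.86, adjusted p = 0.000215), the fructose carrier Slc2a5 (0.75, adjusted p = 0.00261) and Ldha (0.60, adjusted p = 0.000127). Between genotypes in fed mice, 1 of 35 passed higher in LKO and 10 lower (median -0.11), and in fasted mice 6 passed higher and 4 lower (median 0.03), where 20.7% and 22.6% of all genes passed. Slc16a1 was called higher (0.75) and Ldhd, the D-lactate dehydrogenase, called lower (-0.59) in fasted LKO mice.

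**Figure D4:**
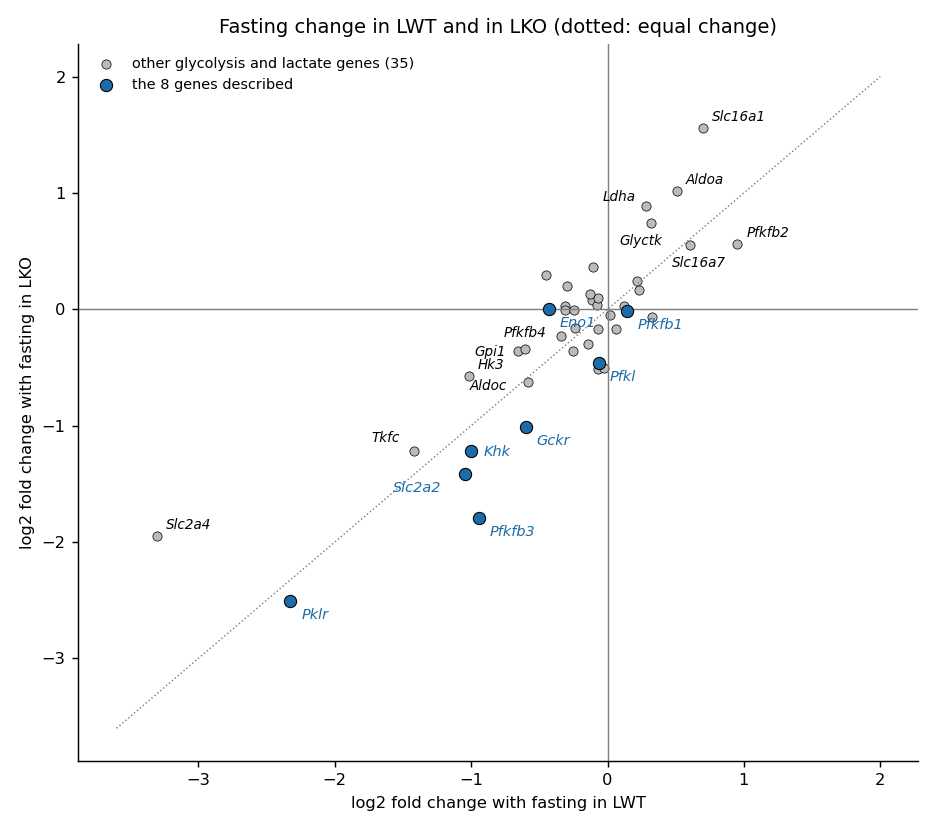
Log2 fold change with fasting in LWT (horizontal axis) and in LKO (vertical axis) for the 8 genes (blue) and 35 other genes of the route (grey); genes called in either genotype are named and the dotted line marks equal changes. Pklr, Slc2a2, Khk, Pfkfb3 and Gckr lie at the lower left and below the line. For Pklr, Slc2a2 and Khk the interaction test did not pass, so their distance from the line is not read as a difference. The fasted signals of Slc2a4 lie close to background, so that its distance from the line is not read.

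Each gene was set against 18482 other genes well above background on all 24 arrays, by Pearson's r of the normalised signals. The 3 most alike to Pklr were Hcn3 (0.99), Tkfc (0.97) and Tkt, the transketolase (0.97). The annotated spans of Hcn3 and Pklr overlap by 41 bases in RefSeq (GRCm38.p6), and whether their probes read the same transcripts was not tested. For Slc2a2 they were Aco1 (0.98), Hcn3 (0.97) and Tkfc (0.96). For Khk they were Gm11967 (0.96), Sucnr1 (0.96) and Cyb5r3 (0.96), and for Gckr they were Afm (0.95), Adra1b (0.95) and AK133468 (0.95). For Eno1 they were NAP108184-1 (0.96), Gapdh (0.93) and Eno1b (0.92), the last a near-identical copy of Eno1 whose signal may not be separate. For Pfkfb3 they were Anxa4 (0.94), St3gal4 (0.93) and Fam47e (0.91). For Pfkl the most alike were Mgat4b (0.92) and Tnks1bp1 (0.91). Pfkfb1 had the weakest likeness, with Coa6 (0.81), Lrba (0.78) and AK046905 (0.77). These correlations are across arrays of all 4 groups, so they hold the group differences as well as the spread within groups.

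Marker genes of other cell types passed in some of the same comparisons. With fasting, the myeloid list (9 genes, mean log2 signal from 9.78 to 11.70) had 1 gene that passed lower in LWT (Cd68, -0.52) and none that passed in LKO. Every log2 change of this list was negative in LWT, from -0.54 (Adgre1) to -0.09 (Timd4). In LKO the changes took both signs, from -0.35 (Cd68) to 0.93 (Marco). Of 6 stellate cell genes, 2 passed lower and 1 higher in each genotype. Of 6 endothelial genes, Clec4g passed lower in LWT (-0.40) and Pecam1 higher in LKO (0.36). Among 4 cholangiocyte genes, Krt19 passed lower (-0.67 in LWT and -0.59 in LKO) and Sox9 higher (0.55 and 0.57) in both genotypes, and Krt7 passed lower in LWT (-0.27). Of 3 adipose genes tested, Lep passed lower in both genotypes (-0.22 and -0.29). Cfd (0.82 and 0.61) and Plin1 (-0.11 and -0.15) did not pass, and each was well above background on 20 of 24 arrays. Of the exocrine pancreas list, Cela1 passed lower in both genotypes (-0.59 and -1.04) and Ctrb1 in LWT (-0.27), while Cpa1 and Pnlip were well above background on 0 of 24 arrays. The neuronal gene Snap25 passed lower in LKO (-1.03).

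Between genotypes, 2 of 6 endothelial genes passed lower in fed LKO mice, and 2 of 4 cholangiocyte genes passed lower in LKO in both states, with list means from 6.38 to 7.10 in LWT_Fed and from 6.23 to 6.68 in LKO_Fed. These cholangiocyte genes were Krt19, well above background on 24 of 24 arrays, and Epcam, on 15 of 24. Cela1 and Ctrb1 passed lower in LKO in both states, as did the adipose gene Cfd (-2.78 fed and -2.99 fasted). Snap25 passed with a higher level in fed LKO mice (1.34). Of 3 erythroid genes tested, 1 passed lower in each of the 4 pairwise comparisons. Of the 6 hepatocyte genes, 1 passed higher (Hpd, 0.56 in LWT and 0.32 in LKO) and 1 lower (Ttr, -0.18 and -0.37) with fasting in each genotype. Between genotypes, 2 passed higher in fed LKO mice (Hpd, 0.33, and Apoa1, 0.28) and Ttr lower (-0.21), and in fasted mice Ttr alone passed (-0.41). The part of these cells in the results was not tested.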

How the data were processed

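Liver RNA was labelled with Cy3 and hybridised to 24 Agilent SurePrint G3 arrays, 1 per mouse. The deposited spot intensity values come from Agilent Feature Extraction 10.10.1.1 per the labels, with probe positions on mm9. The authors also deposited a log2 table, which per their methods was filtered, corrected for the washing bath and quantile normalised; it served only as an alternative. Here log2 median intensity was taken, outlier spots were dropped, replicate spots averaged, and probes kept if well above background on at least 5 of 6 arrays of a group, which left 32197 probes. After quantile normalisation, limma 3.58.1 (R 4.3.3) fitted group means with slide (3 slides of 8 arrays, 2 of each group) and array weights, with Benjamini-Hochberg adjustment over all probes. Slide stood in for the bath, which the labels do not name. Named were all members with their probes, Pik3ca, called genes of the pathway list, and the 3 genes most alike to each member, of which 1 is not reported here. The members, lists and rules were chosen with earlier results of these data known. Array number limits the precision. Alternatives concerned signal, scaling, background, filter, slide, weights, replicate block, fold minimum, probe and arrays left out. Protein comparisons were not run.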

Additional observations from a re-analysis of the deposited data

Results flagged for a closer look

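Of 32 combinations of gene and group, 6 held an array far from the other 5 by Dixon's criterion, and chance alone would give about 1 in 20. In LWT_Fed, replicate 3 was highest for Slc2a2 (12.96, against 12.33 for the next array) and for Eno1 (16.51, against 16.12). In LKO_Fasted, replicate 4 was lowest for Slc2a2 (9.68, against 10.51) and for Khk (14.75, against 15.15). In LWT_Fasted, replicate 2 was lowest for Pfkl (9.02, against 9.51) and for Pklr (7.89, against 8.85). These are the 3 arrays with the lowest weights in the fit. Without them together, an alternative chosen after seeing the data, the counts of genes called among the 8 were 5, 5, 2 and 2 in the pairwise comparisons and 0 in the interaction test.

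The fasting change differed between LKO and LWT for Gckr (-0.41), Pfkfb3 (-0.85), Pfkl (-0.40) and Eno1 (0.43), given as the LKO minus the LWT change on the log2 scale and tested by the interaction term. Without the same 3 arrays the values were -0.43 (adjusted p = 0.012), -0.76 (adjusted p = 0.0585), -0.48 (adjusted p = 0.000833) and 0.41 (adjusted p = 0.00733).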

How the results depend on the processing

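Over 14 settings, the counts among the 8 genes stayed between 4 and 5 with fasting in LWT and between 5 and 6 in LKO, apart from the fold minimum. With no fold minimum, 9734, 9311, 4450, 4866 and 2224 genes were called in the 5 comparisons in the order of the report, and 4, 6 and 4 of the 8 genes in the fed, fasted and interaction comparisons. With a fold minimum of 2, the counts over all genes were 745, 998, 327, 227 and 226, and those among the 8 genes were 3 with fasting in LWT, 1 in fed mice, 1 in fasted mice and 0 for the interaction. The processed signal gave 3337 genes with fasting in LWT, 1620 in fed mice and 1391 in fasted mice. With no filter the interaction count among the 8 genes was 0 (Pfkfb3 at -0.88, adjusted p = 0.0593), and the Pfkl interaction did not pass (-0.35, adjusted p = 0.154). Without LKO_Fasted replicates 1 and 2 together, the interaction gave 1299 genes. Scaling to the 75th percentile moved the median of all genes with fasting in LKO to -0.11 and reversed no direction among the 8 genes, and it made 297 of 870 interaction calls higher, against 376 of 761 as reported.

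Changes near 0 turned sign: Eno1 with fasting in LKO read -0.0075 with no filter, -0.0038 with no array weights and -0.0031 with only the groups compared, Pfkfb1 in LKO read 0.021 without LKO_Fasted replicates 1 and 2, and the Pklr interaction read 0.0040 with no array weights. With the probe of smallest p or another probe, Pfkl read 0.35 with fasting in LWT and 0.12 in LKO, Pfkfb1 -0.19 in LWT, and Eno1 0.74 in LWT and -0.25 in LKO. Leaving out each array in turn gave 4 to 5, 5 to 5, 2 to 3, 2 to 4 and 0 to 1 of the 8 genes called, 539 to 1070 genes called for the interaction, and log2 changes with fasting in LKO from -0.067 to 0.039 for Pfkfb1 and from -0.048 to 0.055 for Eno1. Of 624 such values of members that had passed, 590 still passed.

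Same-numbered arrays correlated between -0.28 and 0.17 in their deviations from group means, with at most 2 of 6 pairs over 0.1. These values gave no sign that the numbers pair the mice, but 6 pairs per comparison cannot exclude it. Whether same-numbered mice share a litter or cage was not tested. With the replicate block the counts were 2119, 2751, 828, 944 and 830 over all genes, and 5, 5, 3, 2 and 1 of the 8 genes, and Pfkl no longer passed for the interaction (-0.36, adjusted p = 0.0625) or between genotypes in fasted mice (-0.23, adjusted p = 0.0699), while Eno1 passed in the latter comparison (0.23, adjusted p = 0.0266).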
